A study of Mus musculus with 4 samples.

Results

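The 6 genes described here encode the Slit ligands (Slit1, Slit2 and Slit3) and the Robo receptors (Robo1, Robo2 and Robo3). They were chosen by gene symbol from the 31053 genes of a single-nucleus RNA sequencing data set of developing mouse superior colliculus, and all 6 were found once. Retinal axons end in the upper layers of the superior colliculus, part of the midbrain. The tissue was taken from the C57BL/6J strain on embryonic day 19 (E19; 1 label text abbreviates this day as E10, while the title and stage label give E19) and on postnatal days 4, 8 and 21 (P4, P8 and P21). The labels name no treatment or altered allele. Each stage was 1 library of nuclei pooled from multiple animals, so every stage difference below is a difference between 2 libraries with no replicate, and no p-value was computed.

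Slits are secreted glycoproteins that bind Robo receptors on growing axons and migrating cells and usually repel them. In the visual system they are known for steering retinal axons along their path and, in fish, for ordering retinal axons among the layers of the tectum, the counterpart of the superior colliculus. Robo1 and Robo2 are the main neuronal Slit receptors, while mammalian Robo3 is a divergent member that is known from commissural axons, binds Slits weakly or not at all, and has Nell2 as a ligand.

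The 4 libraries held 2249 to 2585 nuclei and 9724 in all, with a median of 6828 unique molecular identifiers (UMIs) per nucleus at E19 and 11745 at P21. The deposited annotation split them into 9 classes and 35 subtypes, of which 13 were excitatory (EN1 to EN13) and 12 inhibitory (IN1 to IN12). Excitatory neurons had 176 to 286 CPM of Slc17a6 (UMIs of a gene per 1000000 UMIs of the class) against 8.32 to 46.3 in inhibitory neurons, and Gad2 had 366 to 557 CPM in inhibitory against 12.1 to 23.8 CPM in excitatory neurons. The class labelled epithelial did not match its label fully. Its 102 nuclei had Cdh1 at 177 to 679 CPM but Krt18 and Epcam at 0 in every library and Foxj1 at 0 to 7.39 CPM. The leptomeningeal genes Col1a1, Col1a2 and Dcn were at 113 to 517 CPM, but Lum, of the same list, was at 0 to 7.28 CPM. Vascular leptomeningeal cells had Lum at 10.4 to 54.6 CPM, and their Col1a1, at 379 to 1264 CPM, lay above the 135 to 291 CPM of this class. This class is called the class labelled epithelial below.

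Slit1 lies at chr19:41600257-41743665 on the minus strand, Slit2 at chr5:47983138-48307733 and Slit3 at chr11:35121224-35708507, both on the plus strand (GRCm38, GENCODE M21). Robo1 spans chr16:72308306-73046095 on the plus strand and Robo2 lies on the same chromosome at chr16:73891839-74411825 on the minus strand. Robo3 is far shorter than the other 5 and spans 17.6 kb at chr9:37415669-37433246 on the minus strand. Small genes lie within Slit2, Slit3, Robo1 and Robo2, among them the host-encoded microRNA genes Mir218-1 in Slit2 and Mir218-2 in Slit3, and the use of the read strand in counting is not given in the sources used here. UMIs of those 4 genes could therefore include or lose some from an overlapping gene, whereas no annotated gene overlaps Slit1 or Robo3. Reads in introns were counted, and isoforms could not be separated.

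The start regions of the 3 receptor genes are shown because the account of the subtypes turns on the balance of Robo1 and Robo2 and on the few subtypes with Robo3. Each sequence runs from 250 bases before to 50 bases after a RefSeq start (GRCm38.p6), with capitals at matches on either strand to TAATTA (a homeodomain core), GGGCGG (a GC box) or CAGCTG (an E-box), overlapping matches included. The Robo3 window is chr9:37433126-37433425 (minus strand), the Robo1 window chr16:72662899-72663198 (plus strand, a start that lies inside the longer GENCODE gene), and the Robo2 window chr16:74411776-74412075 (minus strand, 1 of 3 RefSeq starts).
Robo3: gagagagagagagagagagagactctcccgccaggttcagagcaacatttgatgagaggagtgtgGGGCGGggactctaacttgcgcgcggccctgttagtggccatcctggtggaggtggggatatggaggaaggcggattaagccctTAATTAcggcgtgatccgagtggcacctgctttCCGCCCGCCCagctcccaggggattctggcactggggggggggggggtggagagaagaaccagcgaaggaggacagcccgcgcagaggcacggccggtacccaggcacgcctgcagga
Robo1: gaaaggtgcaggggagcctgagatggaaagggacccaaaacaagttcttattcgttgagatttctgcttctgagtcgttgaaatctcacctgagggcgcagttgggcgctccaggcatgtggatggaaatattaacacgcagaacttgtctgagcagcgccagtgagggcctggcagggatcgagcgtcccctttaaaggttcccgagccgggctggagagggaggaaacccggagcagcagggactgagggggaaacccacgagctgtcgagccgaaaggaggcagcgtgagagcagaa
Robo2: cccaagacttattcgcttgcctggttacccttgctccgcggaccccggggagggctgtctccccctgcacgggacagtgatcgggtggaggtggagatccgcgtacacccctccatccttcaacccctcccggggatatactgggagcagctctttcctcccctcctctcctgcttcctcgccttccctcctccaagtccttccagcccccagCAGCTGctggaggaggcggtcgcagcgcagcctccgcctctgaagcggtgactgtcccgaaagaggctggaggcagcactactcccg
The Robo3 window held 1 TAATTA and 3 GC boxes, 2 of them overlapping. Of all 32851 start windows of the same length, 5.29% held TAATTA, 35.7% held a GC box and 16.3% held CAGCTG. The Robo2 window held 1 CAGCTG, and the Robo1 window held none of the 3 motifs. In the windows of Slit2 and Slit3, not printed, 3 and 6 GC boxes were found and the base composition was 68% and 78.3% G or C, against a median of 52.7% over all windows. These matches describe letters only and say nothing about binding.

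In excitatory neurons the ligands were found at lower levels than Robo1 and Robo2. Because the counts include introns, levels of different genes are compared only per 100 kb of gene span, a rough scale since the chemistry reads 3′ ends. On that scale excitatory neurons at P21 had 211 CPM per 100 kb of Robo1, 210.3 of Robo2, 88.8 of Robo3, 77.8 of Slit1, 73.0 of Slit2 and 22.2 of Slit3. Robo1 and Robo2 stood highest and Slit3 lowest in excitatory neurons of all 4 libraries.

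**Figure D1:**
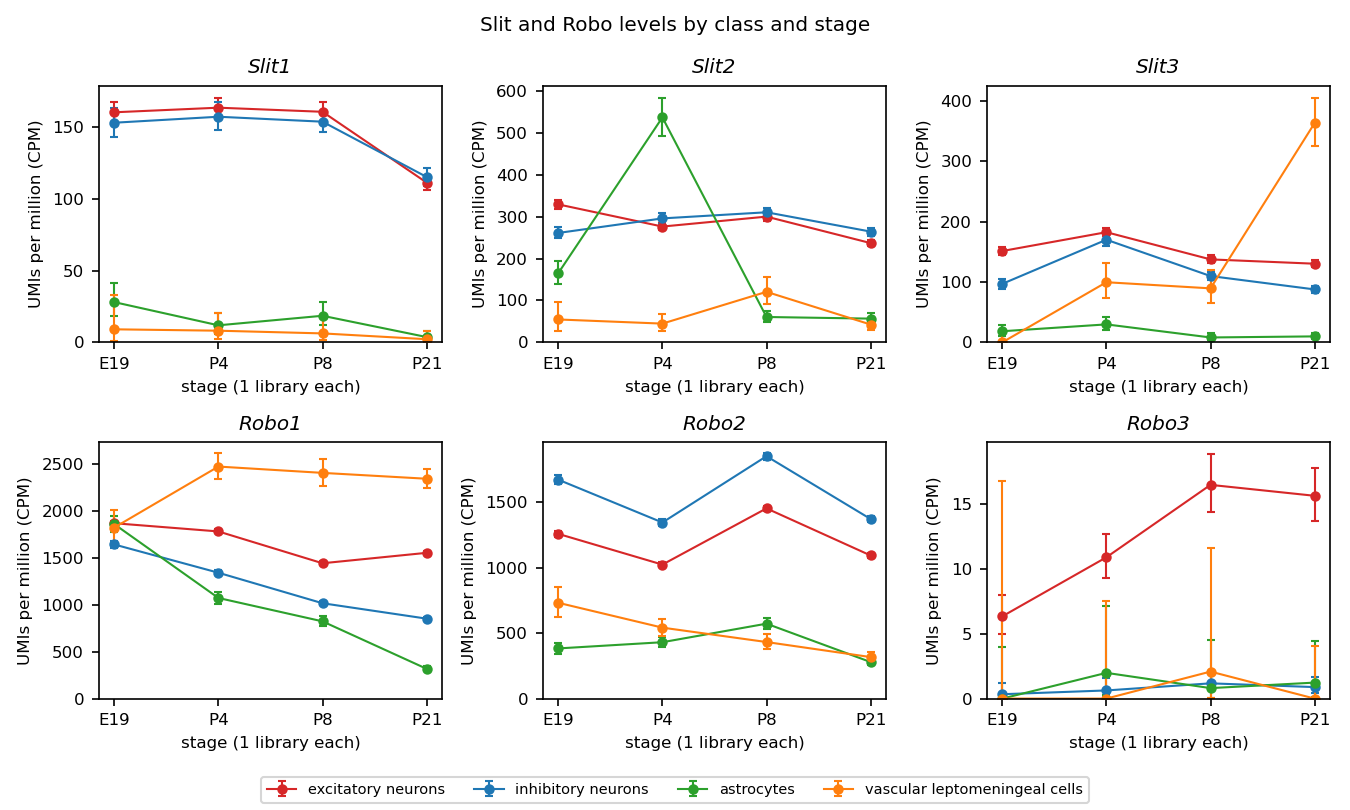
Levels of the 6 genes (CPM of the class, y axis) at each stage (x axis) in excitatory neurons, inhibitory neurons, astrocytes and vascular leptomeningeal cells, with 95% Poisson intervals that cover counting error only. Robo1 is lower at each later stage in inhibitory neurons and astrocytes, Slit2 in astrocytes peaks at P4, and Slit3 in vascular leptomeningeal cells is highest at P21.

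Slit1 had much the same level in both neuron classes. In excitatory neurons its levels from E19 to P21 were 161, 164, 161 and 112 CPM, and in inhibitory neurons at 153, 157, 154 and 115 CPM. The first 3 libraries could not be told apart within counting error in either class, and the P21 library was lowest in both (log2 ratio from E19 to P21, with 5 CPM added to both values, of -0.51 and -0.39). Slit2 was at 329, 276, 300 and 237 CPM in excitatory neurons and at 261, 296, 310 and 264 CPM in inhibitory neurons. In these sums excitatory neurons were higher at E19 and inhibitory neurons at the other 3 stages. That turn was lost with subtypes weighted alike, where the log2 ratio of inhibitory to excitatory neurons was -0.20 at P4, -0.09 at P8 and -0.10 at P21. Slit3 had 151, 182, 137 and 130 CPM in excitatory and 96.8, 170, 110 and 87.6 CPM in inhibitory neurons, so the P4 library was highest in both classes as summed. With subtypes weighted alike it was highest in neither: the log2 ratio from P4 to P8 was then 0.20 in excitatory and 0.10 in inhibitory neurons, against -0.40 and -0.61 as summed. The step from E19 to P4 stayed upward in inhibitory neurons (0.86) and was -0.08 in excitatory neurons. Slit3 was also the most concentrated ligand, since the tenth of nuclei with the most Slit3 UMIs held 67.1% to 79.2% of them in excitatory neurons, against 40.8% to 49.3% for Slit2.

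For Robo1 the gap between the neuron classes was widest in the P21 library. Inhibitory neurons had 1643 CPM (95% Poisson interval 1610 to 1675) at E19, then 1342, 1016 and, at P21, 852 CPM (835 to 869), a log2 ratio of -0.94 from first to last. Excitatory neurons had 1869, 1782, 1443 and 1554 CPM, a log2 ratio of -0.27. The share of inhibitory nuclei with a Robo1 UMI, after each nucleus was thinned to 2300 UMIs, was 75.5% at E19 and 58.0% at P21. In microglia (13 and 33 nuclei), taken as a class that should lack Robo1, 30.8% and 48.5% had one. The median depth of microglia was 4324 and 2994 UMIs, and that of inhibitory neurons 6075 and 14010 UMIs before thinning. The P21 shares came from nuclei of unlike depth, so that of microglia cannot gauge free RNA in inhibitory neurons. The part of free RNA in the inhibitory share was not tested. The CPM of microglia, 248 and 234, lay well below the 1643 and 852 of inhibitory neurons. Part of the inhibitory difference moved with the mix of subtypes: IN3 and IN4, both low in Robo1, were 15.5% of that class at E19 against 29.7% at P21, and with subtypes weighted alike the log2 ratio was -0.59.

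Robo2 had 1259, 1024, 1454 and 1094 CPM in excitatory and 1673, 1346, 1852 and 1372 CPM in inhibitory neurons. As summed, both classes were highest at P8, and lowest at P4, where the inhibitory value overlapped that of P21 within counting error. With subtypes weighted alike both were highest at E19 and lowest at P21, with 2023, 1566, 1546 and 1279 CPM over 11 excitatory and 1829.8, 1457, 1736 and 1277 CPM over 12 inhibitory subtypes. In excitatory neurons the step from P4 to P8 (log2 ratio 0.50) went with a larger share of EN5 and EN6, both rich in Robo2, which made up 7.21% of excitatory nuclei at P4 and 23.5% at P8; with subtypes weighted alike the ratio was -0.02. In inhibitory neurons the same step was 0.46, and 0.25 with subtypes weighted alike. Robo3 was scarce: excitatory neurons had 6.33, 10.9, 16.5 and 15.6 CPM and inhibitory neurons 0.34, 0.63, 1.17 and 0.88 CPM.

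None of the 5 members with at least 20 CPM differed past 2-fold between the stages compared (consecutive stages, and E19 against P21) in either neuron class. Over all genes at 20 CPM, 17.2% passed 2-fold at 1 or more of these contrasts in excitatory neurons and 17.7% in inhibitory neurons. From E19 to P21 alone the background was 16% in excitatory and 17.2% in inhibitory neurons. Robo1 in inhibitory neurons came nearest to the threshold and passed it when nuclei were weighted alike (log2 ratio -1.004) or thinned (-1.02).

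Between inhibitory and excitatory neurons of the same library, 0 of 5 members differed past 2-fold in all 4 libraries, against 1.13% of all genes. On the same side in all 4 libraries, at any size, were 3 of 5, against 49% of all genes. Robo2 was higher in inhibitory neurons, by log2 ratios of 0.41, 0.39, 0.35 and 0.33 from E19 to P21. Robo1 was higher in excitatory neurons, with log2 ratios of inhibitory to excitatory of -0.19, -0.41, -0.50 and -0.86. Slit3 was higher in excitatory neurons (-0.62, -0.10, -0.31 and -0.55). With subtypes weighted alike Robo2 lost its side, at -0.03 at E19 and -0.003 at P21, and without EN7, a subtype found mostly in the P4 library, the P4 ratio of Slit3 was 0.03. Robo1 stayed higher in excitatory neurons at all 4 stages with subtypes weighted alike (-0.38 to -0.79).

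Subtypes differed far more than the 2 classes did. Over the 25 neuron subtypes, the mean level over libraries with at least 20 nuclei ran from 325 to 2597 CPM for Robo1 and spanned 9.50-fold for Robo2, 9.55-fold for Slit2 and 15.5-fold for Slit1. For Slit3 the lowest subtype was at 0.43 CPM and the highest at 326 CPM, and for Robo3 the lowest was at 0 and the highest at 119 CPM. Since subtypes were named from clusters of the same counts, these differences are a description with no test.

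**Figure D2:**
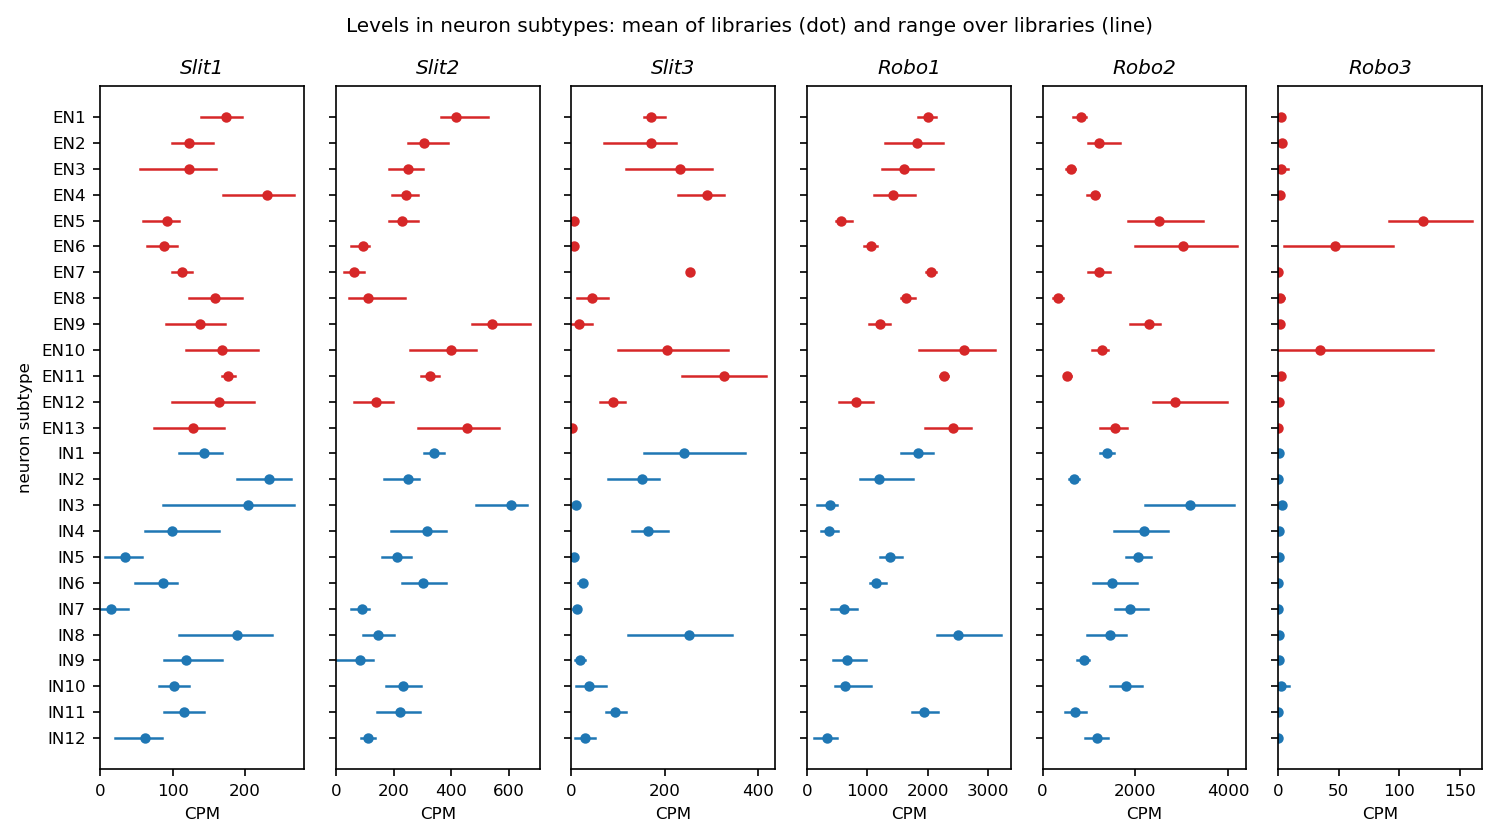
Mean level over libraries (dot) and range over libraries with at least 20 nuclei (line), in CPM, for each of the 6 genes (panels) in the 13 excitatory (red) and 12 inhibitory (blue) subtypes. Robo3 stands above 20 CPM on average in EN5, EN6 and EN10, while Robo1 and Robo2 are found in every subtype.

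Among the ligands, Slit1 was highest in IN2 at 234 CPM on average (225, 257, 263 and 189 CPM from E19 to P21), with EN4 at 230.3 CPM and IN3 at 205 CPM close behind. The ranges of these 3 over libraries overlap, so their order is not settled. IN3 differed from IN2 in its course, with 86.1 CPM at E19 and 221, 268 and 243 CPM after. The lowest Slit1 levels were in IN7 (15.0 CPM, with no UMI at E19, where the limit of 3 counts is 15.6 CPM), IN5 and IN12.

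Slit2 was highest among neurons in IN3, with 662, 644, 635 and 483 CPM. EN9 followed with 672, 470, 551 and 473 CPM and EN13 with 563, 502, 458 and 285 CPM. The first 2 overlapped within counting error at E19 and P21, and IN3 was higher at P4 and P8. At the low end stood EN7 (63.5 CPM), IN9 and IN7. EN8 had 240 CPM of Slit2 at E19 and 72.0, 87.6 and 44.8 CPM afterwards, so it left the middle of the order after E19.

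Slit3 had the sharpest split of the ligands. It was highest in EN11 (326 CPM, from the E19 and P4 libraries, which held enough nuclei), EN4 (327, 283, 321 and 229 CPM) and EN7 (255 CPM, also from E19 and P4), and nearly absent from EN13 (0.43 CPM), EN6 and EN5. In EN13 the first 3 libraries held no Slit3 UMI and the P21 library held 1. EN3 went from 116 CPM at E19 to 238, 274 and 302 CPM, and EN2 from 68.8 to 183, 223 and 205 CPM. In these 2 subtypes Slit3 was higher at every later stage than at E19, with intervals that do not overlap.

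Robo1 was highest in EN10, with 2810, 3120, 2608 and 1849 CPM. IN8 (3222, 2356, 2261 and 2151 CPM) and EN13 (2626, 1950, 2358 and 2713 CPM) were next, and the ranges of these 3 overlap. IN12 was lowest (325 CPM on average), followed by IN4 (515, 401, 330 and 231 CPM) and IN3 (391, 473, 499 and 166 CPM). Robo2 was highest in IN3, with 4135, 2802, 3551 and 2210 CPM. EN6 (4197, 3115, 2810 and 1992 CPM) and EN12 (3977, 2596, 2391 and 2434 CPM) followed. EN8 was lowest (439, 302, 364 and 232 CPM), then EN11 and EN3.

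**Figure D3:**
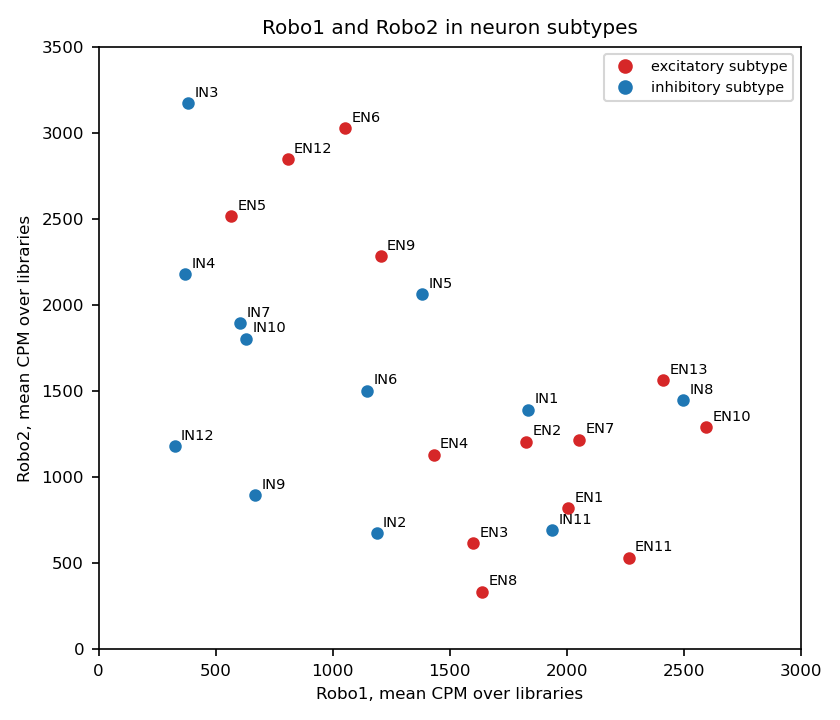
Mean Robo1 level (x axis) against mean Robo2 level (y axis), both in CPM and averaged over libraries with at least 20 nuclei, for the 13 excitatory (red) and 12 inhibitory (blue) subtypes. No subtype lies at the upper right: IN3 and EN6 lie at the top left and EN8 and EN11 at the bottom right. EN13 and IN8 lie above the subtype median of both genes.

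The balance of the 2 receptors, log2 of Robo1 over Robo2 in CPM, ran from -3.11 in IN3 to 2.31 in EN8. In IN3 it lay between -3.70 and -2.55 over the 4 libraries and in EN8 between 2.01 and 2.72, so the spread over stages was small beside the gap. The sign of that ratio depends on the spans of the 2 genes, whereas its order over subtypes does not, so the subtypes are counted per 100 kb of span. On that scale 4 excitatory subtypes had more Robo1 than Robo2 in every library with at least 20 nuclei (EN1, EN3, EN8 and EN11, the last in 2 libraries), 4 had more Robo2 (EN5, EN6, EN9 and EN12) and 5 were mixed. Of the inhibitory subtypes 3 had more Robo1 (IN2, IN8 and IN11), IN2 by a log2 ratio of only 0.04 in its lowest library, and 9 had more Robo2. Among those 9 the margin was also thin in IN1 and IN9, at -0.03 and -0.09 in their closest libraries. In CPM IN1 had more Robo1 in every library (0.30 to 0.47) and IN9 was mixed, so the side of these subtypes depends on the spans used. Across the 25 subtypes Pearson's r of log2 levels was -0.47 for Robo1 with Robo2, -0.49 for Slit3 with Robo2, 0.43 for Slit3 with Robo1 and 0.51 for Slit1 with Slit3. These points share libraries and come from clusters of the same nuclei, and the values are a description.

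UMIs of both receptors were often found in the same nucleus. Of neurons thinned to 2300 UMIs, 62.6% to 68.3% of excitatory nuclei had a UMI of both Robo1 and Robo2 in the 4 libraries, and 48.9% to 63.3% of inhibitory nuclei. Free RNA can add to these shares, since 19.0% to 48.5% of thinned microglia had a Robo1 UMI and 36.4% to 47.8% a Robo2 UMI. Nuclei with Robo2 and no Robo1 UMI made up 20.2% of inhibitory neurons at E19 and 37.2% at P21. Over 50 sets of nuclei of 1 subtype in 1 library, the share with Robo2 was higher among nuclei with Robo1 in 28 and lower in 18, with a median difference of 0.98 percentage points.

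Robo3 was a gene of few subtypes. EN5 had 160, 122, 102 and 91.6 CPM from E19 to P21, and 58.5%, 52.2%, 63.1% and 69.0% of its nuclei had a UMI. Depth rose with age, and after thinning these shares were 34.1%, 30.4%, 29.1% and 15.5%, so the shares did not rise with age once depth was fixed. In inhibitory neurons 0.22% to 1.19% of nuclei had a Robo3 UMI before thinning, at median depths of 6075 to 14010 UMIs against 7610 to 15719 in EN5. EN6 went the other way, with 4.96 CPM at E19 (1 UMI in 30 nuclei), then 30.1, 59.0 and 94.8 CPM at P21. The ratio of P21 to E19 was 19.1, with a 95% counting interval from 3.35 to 763 that reflects the single UMI, and thinned shares were 3.33%, 7.32%, 9.90% and 14.1%. At P21 the 2 subtypes overlapped.

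EN10 had Robo3 in 1 library. At P4 it held 64 Robo3 UMIs in 21 of 60 nuclei (128 CPM, interval 98.3 to 163), and 114 CPM without the nucleus that had the most. At E19 none of its 49 nuclei had a UMI, and with 3 counts as the limit of a count of 0 in that library, the P4 level was at least 13.5-fold higher. At P8 and P21 it had 4.18 and 5.56 CPM, from 2 and 3 UMIs. Together EN5, EN6 and EN10 were 16.5% of excitatory nuclei and held 87.2% of the Robo3 UMIs of that class. All other excitatory subtypes together had 0.49 to 2.42 CPM, above the 0.34 to 1.17 CPM of inhibitory neurons in 3 of the 4 libraries, and in each non-neuronal class the 4 libraries held 0 to 2 Robo3 UMIs.

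**Figure D4:**
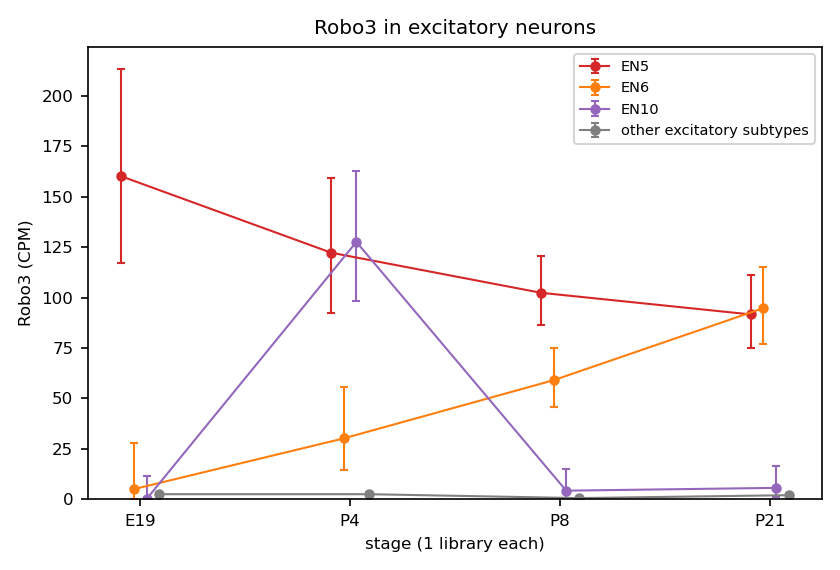
Robo3 level (CPM, y axis) by stage (x axis, 1 library each) in EN5, EN6, EN10 and all other excitatory subtypes together, with 95% Poisson intervals for counting error. EN5 is highest at E19, EN6 is higher at each later stage, and EN10 stands out at P4 alone.

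The class level of Robo3 in excitatory neurons moved with the share of these subtypes. EN5 and EN6 made up 5.31%, 7.21%, 23.5% and 19.8% of excitatory nuclei from E19 to P21, and with subtypes weighted alike the log2 ratio from E19 to P21 was 0.11 in place of 0.86. Per 100 kb of span, EN5 had 911, 695, 582 and 521 CPM of Robo3 against 666, 454, 462 and 356 CPM of Robo2 and 66.0 to 101 CPM of Robo1. In EN5 Robo3 thus had the highest level of the 6 genes on that rough scale in all 4 libraries. In CPM, without regard to span, EN5 had far more Robo2 (3461 at E19 and 1851 at P21) than Robo3 (160 and 91.6). Which of the 2 stands higher in EN5 therefore depends on the scale. Nell2, the Robo3 ligand, was itself highest in EN5 among the 25 subtypes (679 CPM on average). Lhx2, a LIM-homeodomain factor known to act on Robo genes in thalamus and spinal cord, was highest in EN6 (137 CPM). Nell2 ranked 11 in EN6 and 6 in EN10, and Lhx2 ranked 4 in EN5 and 13 in EN10. Of the other pathway genes read by subtype, Nell1 was highest in EN6, Lhx9 in EN9, and Dcc and Ntn1 in EN8. Isl1 was also highest in EN8, but at only 12.3 CPM on average, below 20 CPM. Nell2 and Lhx2 were looked at after their values were seen.

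Within the subtypes, Robo1 and Robo2 were lower at P21 than at E19 more often than higher. Of 23 subtypes with at least 20 nuclei in both libraries, Robo2 had a lower level with intervals apart in 19 and a higher one in 0. Robo1 was lower in 16 and higher in 1, EN2, which had 1291 CPM at E19 and 2068 CPM at P21. Robo3 was lower in 2, higher in 1 and overlapping in 20. Slit1 was lower in 8 and higher in 2, Slit2 lower in 10 and higher in 3, and Slit3 lower in 3 and higher in 5. Intervals are narrower for abundant genes, so these counts are not comparable between members, and the median log2 ratios over the subtypes were -0.43 for Robo1, -0.55 for Robo2, -0.56 for Slit1, -0.49 for Slit2 and 0.14 for Slit3. Of 109 pairs of member and subtype at 20 CPM or more, 57 were lower with intervals apart, against 15.5% of such pairs over all genes, and 12 higher, against 11.3%. At 300 CPM or more, where intervals are narrower, 42 of 58 were lower, against 35.5%, and 3 higher, against 34.8%. The pairs repeat the same few genes over subtypes of the same E19 and P21 libraries, so they are not separate observations. Of the 57 lower pairs, 19 were of Robo2 and 16 of Robo1. The higher Slit1 levels were those of IN3, above, and EN9, which went from 91.4 to 172 CPM. Past 2-fold at 20 CPM or more, 16 of the 109 pairs were lower, against 16.5% of all such pairs over all genes, and 9 were higher, against 11.4%.

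Astrocytes differed between the stages in Slit2, Robo1 and Robo2. All 5 members that reached 20 CPM in astrocytes passed 2-fold at 1 or more stage contrasts, against 30.6% of all genes. From E19 to P21 alone 3 of 4 members were lower past 2-fold, against 18.2%. Robo1 was at 1859, 1072, 823 and 317 CPM, a log2 ratio of -2.53 from E19 to P21, and thinned shares of nuclei with a UMI were 87.8%, 81.6%, 75.1% and 47.7%. The median log2 ratio over all genes in astrocytes was -0.24, and with median-of-ratios scaling that of Robo1 was -2.23. At P21 the astrocyte level (interval 291 to 346) was close to that of microglia (234 CPM, interval 153 to 343) and the thinned share below theirs (48.5%). With microglia as the gauge, Robo1 in astrocytes at P21 cannot be told from free RNA. The 12 endothelial nuclei of that library had less Robo1, at 94.9 CPM (interval 38.2 to 196), so the reading depends on the class taken as gauge. Slit1 was at 28.1, 11.9, 18.5 and 3.69 CPM, within or below the 9.003 to 124 CPM of microglia. Slit3 was at 18.4, 29.7, 8.06 and 9.84 CPM, within the 0 to 68.9 CPM of microglia. The calls of Slit1 and Slit3 in the counts above therefore rest on low values within or below the microglial range. The tops of that range, Slit1 at E19 and Slit3 at P4, came from 7 and 5 UMIs. In each case 4 of these were in 1 nucleus. The part of free RNA in the astrocyte values was not tested.

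Slit2 in astrocytes had 165, 537, 60.5 and 56.6 CPM as summed. Of these Slit2 UMIs fibrous astrocytes held 106 of 153 at E19, 505 of 542 at P4, 30 of 75 at P8 and 54 of 92 at P21, so most came from that subtype at E19 and P4 but not at P8. Fibrous astrocytes had 556 CPM at E19, 2238 at P4 (interval 2047 to 2442), 136 at P8 and 238 at P21, while protoplasmic astrocytes had 63.9, 47.2, 44.1 and 27.2 CPM. At P4 64.6% of the 48 fibrous nuclei had a Slit2 UMI (median depth 4508 UMIs) against 3 of 23 microglia (2984 UMIs), and the level was 2022 CPM without the nucleus with the most. At P21 a single nucleus held 33 of the 54 fibrous UMIs, and the level was 95.1 CPM without it. Microglia had 35.4 to 145 CPM of Slit2 over the libraries, and the protoplasmic values and the fibrous value at P8 lay within or below that range. The 145 CPM was the P8 value, from 11 UMIs in 21 nuclei (interval 72.3 to 259). Protoplasmic astrocytes of that library had 44.1 CPM. The part of free RNA in these values was not tested. The listed astrocyte markers Aqp4, Slc1a3, Aldh1l1 and Gja1 were all present in fibrous astrocytes of each library, but their summed level was lowest at P4, at 665 CPM, against 1286 at E19, 2475 at P8 and 2946 at P21. Leptomeningeal markers summed to 93.1 CPM there at P4, against 42.0 to 114 CPM in the other 3 libraries. The part of this lower marker level in the Slit2 value was not tested.

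**Figure D5:**
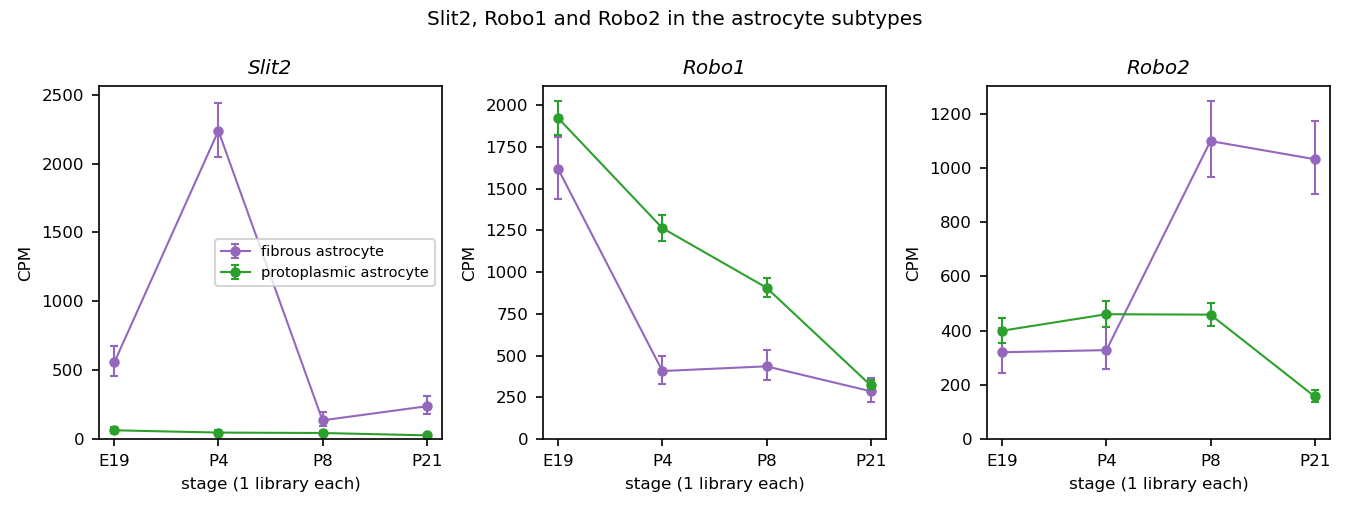
Slit2, Robo1 and Robo2 levels (CPM, y axes) by stage (x axis, 1 library each) in fibrous and protoplasmic astrocytes, with 95% Poisson intervals for counting error. Slit2 is high in fibrous astrocytes at P4, and from P8 on Robo2 is higher in fibrous than in protoplasmic astrocytes.

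Both receptors also differed between the astrocyte subtypes. In protoplasmic astrocytes Robo1 was lower at each later stage, with 1922, 1264, 907 and 322 CPM, whereas fibrous astrocytes had 1617 CPM at E19 and then 408, 436 and 287 CPM. Robo2 was at 400, 460, 459 and 157 CPM in protoplasmic astrocytes but at 320, 328, 1099 and 1032 CPM in fibrous astrocytes. The 2 subtypes thus moved in opposite directions for Robo2 from E19 to P21. Summed over astrocytes its log2 ratio was -0.45, and with the 2 subtypes weighted alike 0.72. Fibrous nuclei were 19.2% to 21.5% of astrocytes in the 4 libraries. Microglia had 211 to 317 CPM of Robo2. The fibrous values at P8 and P21 lay above that range, and the protoplasmic value at P21 lay below it. Endothelial cells had less Robo2, at 27.0 CPM at E19 and 203 CPM at P21, so the reading depends on the class taken as gauge. The part of free RNA in these values was not tested.

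The highest Slit2 and Slit3 levels of any class were in the class labelled epithelial. Slit2 had 1196, 2129, 4199 and 2005 CPM there and Slit3 1180, 1205, 2558 and 1172 CPM, from 13, 17, 32 and 40 nuclei. Its Slit1 level, at 0 to 14.8 CPM, was low. Thinned, 61.5% to 94.1% of its nuclei had a Slit2 UMI and 47.5% to 84.4% a Slit3 UMI. No neuron subtype reached these levels in a library with at least 20 nuclei. Among astrocytes the fibrous subtype did, with 2238 CPM of Slit2 at P4, where the class labelled epithelial had 2129 CPM. Vascular leptomeningeal cells, fibroblast-like cells of the brain coverings, had no Slit3 UMI at E19 in 36 nuclei, then 99.5, 89.3 and 363 CPM. The P21 level was at least 26.6-fold above the limit of 3 counts at E19, and the P8 value was 40.2 CPM without the nucleus with the most. Robo1 in these cells was at 1823, 2473, 2406 and 2343 CPM, a level no other non-neuronal class reached after E19, and Robo2 was lower at each later stage (732, 542, 432 and 317 CPM).

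In the oligodendrocyte lineage the precursors had Robo1 at 923, 1218, 1267 and 1169 CPM. Committed oligodendrocytes had 438 CPM at P8 and 134 CPM at P21, and myelinating oligodendrocytes, of which 187 were found at P21 and 1 at P8, had 449 CPM at P21. Robo2 was at 260 CPM in precursors and 85.5 CPM in myelinating oligodendrocytes at P21. Microglia of that library had 279 CPM of Robo2 (interval 190 to 396) and 234 CPM of Robo1 (153 to 343). These Robo2 values, and the P21 value of Robo1 in committed oligodendrocytes, were thus at or below the microglial level. The part of free RNA in them was not tested. Slit3 was higher in committed oligodendrocytes at P21 (130 CPM) than in precursors (43.4 CPM) or myelinating oligodendrocytes (8.93 CPM), with the interval of the committed cells above both others. Microglia and endothelial cells had the lowest Robo1 of the 9 classes, at 94.9 to 248 CPM from 12 to 33 nuclei a library. Slit3 in microglia was at 0 to 68.9 CPM, and the precursor and myelinating values of Slit3 lie within that range.

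The list of 55 other genes of the pathway was read by role. In excitatory neurons 47 of them reached 20 CPM, and 5 were lower and 1 higher past 2-fold from E19 to P21, against 10.7% lower and 5.35% higher over all genes. In inhibitory neurons 6 of 46 were lower and 2 higher, against 11.3% and 5.83%. At any size 37 of 47 and 33 of 46 were lower, against 53.9% and 52.2% of all genes, and the median log2 ratio was -0.26 and -0.35, against -0.06 and -0.04 over all genes.

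Of the Slit-binding and surface genes, the heparan sulfate proteoglycan Sdc3 was at 125 CPM at E19 and 20.1 CPM at P21 in excitatory neurons, and at 132 and 20.3 CPM in inhibitory neurons. Sdc2, of the same family, was at 45.3 and 83.3 CPM in inhibitory neurons, and Nell1 at 557 and 788 CPM in excitatory neurons. Among the effectors, Srgap1, a GTPase-activating protein that binds the Robo tail, was at 585 and 191 CPM in excitatory and 516 and 160 CPM in inhibitory neurons. The actin regulator Cap2 was higher at P21 in both, at 34.0 and 111 CPM and at 30.2 and 132 CPM. Hs6st2, an enzyme of heparan sulfate synthesis, had log2 ratios of 0.83 and 1.45. Lhx9 was at 183 and 61.1 CPM in excitatory neurons and at 26.3 and 1.42 CPM in inhibitory neurons.

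Between the neuron classes 46 of these genes had 20 CPM in the higher class of every library, and 2 were past 2-fold to the excitatory side in all 4, against 0.579% of all genes, and 0 to the inhibitory side, against 0.547%. The 2 were Lhx9, at log2 ratios of inhibitory to excitatory from -2.55 to -3.36, and Lhx2, from -2.00 to -2.62. Nell2 came next, from -0.86 to -1.44. On the inhibitory side stood Msi1 (0.42 to 0.48), an RNA-binding protein, Srgap3 (0.29 to 0.39) and Srgap2 (0.23 to 0.53).

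The genes most like each member over the 25 neuron subtypes, by Pearson's r of log2 levels among 8709 genes, were found as a description. Slit1 was most like Pgm3 (r = 0.78), followed by Ampd2, Pcolce2, Asic2 and Itsn2. Slit2 was most like Sh3gl3 (0.70), then Grk4, Tmem117, Adamtsl3 and Ptprr, and Slit3 most like Sorcs3 (0.79), then Plekha7, Sc5d and Tmem245. Robo1 was most like Stau2 (0.85), which encodes an RNA-binding protein of neuronal dendrites, then L3mbtl1, Armc2, Plxna4, a semaphorin co-receptor, and Slc6a15. Robo2 was most like Tm7sf3 (0.76), then Per1, Ncor1, Gpr45 and Syne2. Robo3 was most like Ak8 (0.86) and Nrgn (0.83), then Npl, 6430573F11Rik and 4930438E09Rik. Nrgn, which encodes neurogranin, lies on the same strand of the same chromosome as Robo3 at chr9:37544492-37552904, 111 kb from it with 3 protein-coding genes between.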

How the data were processed

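Nuclei of superior colliculus were profiled with the 10x Genomics 3′ v3 chemistry, per the labels. Per the submitters' processing notes, Cell Ranger 3.0.2 and mm10 were used. The filtering of nuclei, the treatment of doublets and the naming of classes are not given in the sources used here. Raw UMI counts per gene and nucleus are held in the deposited matrix, and the deposited table of nuclei gives stage, class, subtype and the percent of mitochondrial UMIs, which was at most 5 in every nucleus. A further 4 columns of that sheet were left unused, and 18 nuclei carried a barcode that occurs in 2 libraries. No nucleus was removed, and no doublet caller was run. Of the gene identifiers, 31011 (99.9%) were found in GENCODE M21.

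Counts were summed per library and class or subtype and scaled to CPM. Log2 ratios had 5 CPM added to both values, which understates changes of low genes. A gene was read as past 2-fold at a log2 ratio of 1 or more and at least 20 CPM in the higher group. Intervals are exact Poisson on CPM and exact Clopper-Pearson on shares, at 95%, and cover counting error only. A count of 0 was limited at 3 counts per library and group. With 1 library per stage no test was made. Subtypes needed 20 nuclei in a library, and means over libraries weight libraries equally. The call rule was tested on simulated data. The members, the pathway list, the marker genes and the rules were chosen with earlier results of these data known. The genes named beyond the members were the 3 largest rises and falls of the pathway list in each neuron class, its 3 genes per side between classes, and the 5 genes most like each member, of which 1 is not reported here. Alternatives were other pseudocounts, another scaling, other weights of nuclei and subtypes, thinning to 2300 UMIs and leaving out a library or EN7. Python 3.11.15 with numpy 2.4.6, scipy 1.17.1 and pandas 2.3.3 was used.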

Additional observations from a re-analysis of the deposited data

Results flagged for a closer look

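For 2 steps the neuron classes went in opposite directions; the difference itself was not tested. From E19 to P4 the log2 ratio of Slit2 was -0.25 in excitatory and 0.18 in inhibitory neurons, a difference of 0.43. From P8 to P21 that of Robo1 was 0.11 in excitatory and -0.25 in inhibitory neurons, a difference of -0.36. With subtypes weighted alike the Slit2 ratios were -0.15 and 0.06, and the Robo1 ratios 0.02 and -0.24.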

How the results depend on the processing

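Of the members, 0 passed 2-fold between stages in excitatory neurons, and 1 (Robo3) did with nuclei weighted alike. In inhibitory neurons 0 passed, and 1 (Robo1) did with nuclei weighted alike and 1 (Robo1) with thinned nuclei. In astrocytes 5 passed, and 3 did with 20 CPM added or with nuclei weighted alike. Between the neuron classes 0 passed under every alternative run, from 0 to 0 when each library was left out. The subtype with the highest level was kept for 4 to 5 of the 6 members when each library was left out. Without E19, Slit1 was highest in IN3 and Slit3 in IN8. Without P4 Robo1 was highest in EN13, without P8 Robo2 in EN6 and without P21 Slit1 in EN4. With at least 50 nuclei Robo3 was highest in EN10. Of 42 log2 ratios of single members, weighting subtypes alike moved 30 by more than their counting error, thinning 19 and median-of-ratios scaling 17. Of 348 alternative values of these ratios, 16 had the other sign. From E19 to P21 with subtypes weighted alike, Slit3 in inhibitory neurons went from -0.14 to 0.50, Robo2 in astrocytes from -0.45 to 0.72 and Slit2 in inhibitory neurons from 0.02 to -0.07 (-0.10 with nuclei weighted alike). Between inhibitory and excitatory neurons the same weighting turned Robo2 at E19 (-0.03) and P21 (-0.003), Slit2 at P4 (-0.20), P8 (-0.09) and P21 (-0.10), and Slit1 at P21 (0.05 to -0.28). Slit1 at P21 also turned with nuclei weighted alike (-0.09), thinned (-0.03) and under median-of-ratios scaling (-0.002), which turned Slit2 at P8 (-0.01). Without EN7, Slit2 (-0.10) and Slit3 (0.03) turned at P4. Why these values moved was not tested. No paired analysis was possible because each stage has 1 library. Robo3 rests on few UMIs, and classes with under 50 nuclei a library give wide intervals.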
